A study of Drosophila melanogaster with 30 samples.

Results

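In 5 of the 15 polyA+ libraries made from whole adult female Drosophila melanogaster, the replication-dependent histone genes took under 0.008% of all read counts, and these libraries are set here against the other 10 polyA+ libraries. The members were chosen by this measured share alone. They comprise 1 of the 3 libraries at 10°C (replicate 2), the pair numbered 2 and 3 at 34°C and the pair numbered 1 and 2 at 37°C. No library at 4°C or 25°C was among them. The split was drawn from the counts of these same libraries, since no label separates the 5 from the others, so the adjusted p-values over polyA+ genes describe how far the libraries stood apart and are no evidence for a labelled condition. All pools were of Canton S, a laboratory wild type without a transgene, raised at 25°C. By the methods, each library came from a pool of 6 flies sealed in 1 tube, whereas a figure legend of the paper gives 9 flies. A water bath was ramped by 0.25°C/min to 4°C, 10°C, 34°C or 37°C, and control flies stayed at 25°C, with 3 pools at each temperature. The methods and the sample records give different hold times at 4°C and 34°C. A further 15 rRNA- libraries, depleted of ribosomal RNA in place of being selected for poly(A) tails, bring the series to 30 libraries. The rRNA- libraries with the same temperature and replicate number as the 5 low-share libraries were taken as the same pools, which the labels do not say outright. The deviations of a polyA+ and an rRNA- library of one temperature correlated with r over 0.1 in 9 of 15 pairs of the same number and in 5 of 30 pairs of different number. The rRNA- libraries played no part in the choice of the members.

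Replication-dependent histone genes encode the bulk of the chromatin histones made during DNA synthesis, and in animals their mature mRNAs end in a stem-loop in place of a poly(A) tail. Poly(A) selection therefore captures them poorly. Replacement histone genes, such as the gene for the variant H2Av, are transcribed outside of DNA synthesis and give ordinary polyadenylated mRNAs. In an adult female, much of the ongoing DNA synthesis takes place in the ovary, where germline and follicle cells of developing egg chambers replicate and endoreplicate. The follicle cells later secrete the vitelline membrane and the chorion, which is the eggshell. Ovary genes and genes for DNA synthesis were for this reason set beside the histone split.

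The histone share of the full counts was 0.00404% in 10°C replicate 2, 0.00476% and 0.00280% in 34°C replicates 2 and 3, and 0.00173% and 0.00244% in 37°C replicates 1 and 2. It lay between 0.0144% and 0.0240%, with a median of 0.0196%, in the other 10 libraries. The low-share libraries held 344 to 897 histone reads each and the others 3386 to 6351, so counting error was small beside the gap. In 37°C replicate 1, the library of lowest share, the 95% Wilson interval ran from 0.00156% to 0.00192%. Just inside the threshold was 34°C replicate 2 (0.00476%) and just outside it 10°C replicate 3 (0.0144%), 3.04 times as high. The same 5 libraries came out lowest with reads of 150 bp in place of 85 bp, and after rRNA genes were left out of the total.

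**Figure D1:**
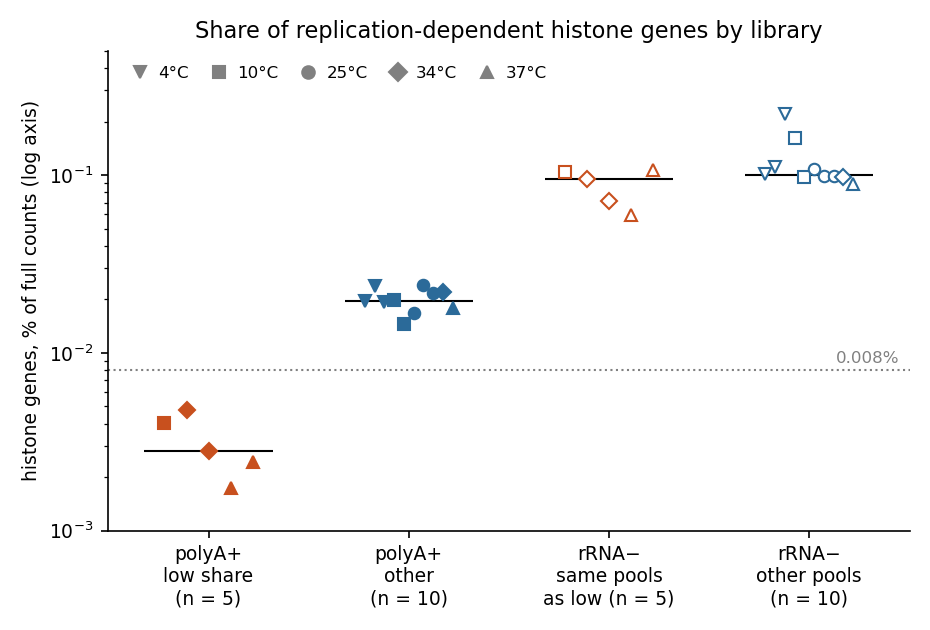
Share of replication-dependent histone genes in the full counts (percent, log axis) for polyA+ and rRNA- libraries, 1 point per library with its shape giving the temperature, a bar at the median and a dotted line at the 0.008% threshold, with the pools of the 5 low-share polyA+ libraries marked. In polyA+ libraries the 5 lie between 0.00173% and 0.00476% and the other 10 between 0.0144% and 0.0240%, whereas in rRNA- libraries the pools overlap.

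Among the histone types, most of the difference in counted reads came from H2A and H4. His2A genes summed to 11.4 to 23.1 CPM (counts relative to each library's own sum) of the full table in the low-share libraries, with a median of 13.4, and to 75.7 to 183, with a median of 141, in the others. His4 genes summed to 5.23 to 17.7 CPM in the low-share libraries and to 25.7 to 47.1 CPM in the others. For both types the ranges lay apart. The ranges of the linker histone His1 overlapped, with 0.704 to 6.70 CPM in the low-share libraries and 5.17 to 35.0 CPM in the others. Those of His3 (0 to 2.00 CPM, against 1.02 to 2.46 CPM) and His2B (0 to 0.797 CPM, against 0.0772 to 0.654 CPM) overlapped too. Both types were near the floor, with at most 79 reads of His3 and 15 of His2B in any polyA+ library. Their overlap therefore says little about a split. In rRNA- libraries too, His3 reached only 3.20 CPM and His2B 1.30 CPM, where His4 had at least 289 CPM. The 111 histone genes were left out of every fit below.

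In rRNA- libraries, the histone share of the full table was 0.0595% to 0.107% in the pools of the low-share libraries and 0.0885% to 0.219% in the other pools. The means were 0.0871% ± 0.0208 (SD, n = 5) and 0.118% ± 0.0408 (SD, n = 10), a difference of -0.0311 that did not pass the test (exact permutation test over all 3003 splits, 2-sided, p = 0.115). The highest share belonged to 4°C replicate 3, whose rRNA depletion stood apart, with 8.60% nuclear rRNA where the other 14 rRNA- libraries had 41.8% to 56.3%, and without it the difference was -0.0199 (p = 0.135, exact permutation test). When nuclear rRNA genes were left out of the total, the histone share was 0.167% ± 0.0281 (SD, n = 5) in the pools of the low-share libraries and 0.219% ± 0.0369 (SD, n = 10) in the others, and this difference passed (exact permutation test, p = 0.0110). Held within temperature, it was -0.0462 (exact permutation test, p = 0.111, where the 27 splits allow no p under 0.037). The low-share pools were the lower ones at each of the 3 temperatures, with 0.206% against 0.308% and 0.212% at 10°C, 0.163% and 0.148% against 0.207% at 34°C, and 0.136% and 0.184% against 0.194% at 37°C. The ranges of the sides, a factor of 3.04 apart in polyA+ libraries, overlapped in rRNA- libraries with either total.

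Other technical measures of the polyA+ libraries moved with the split. Full counts per library totalled 18477184 to 19872287 in the low-share libraries and 20556464 to 32104629 in the others. The total with reads trimmed to 85 bp was 1.052 to 1.083 times that with 150 bp reads in the low-share libraries, and 1.024 to 1.044 times in the others. Nuclear rRNA, which also lacks a poly(A) tail, took 0.0115% to 0.0606% of the full counts in the low-share libraries and 0.0676% to 0.295% in the others. The ranges of these 3 measures did not overlap, and their part in the results below was not tested. The equalized counts, from which the authors removed rRNA reads, were thinned by them to the depth of the matching rRNA- libraries. These counts totalled 3172658 to 5925256 in the low-share libraries and 2188773 to 4971534 in the others, so depth overlapped there. Some rRNA remained, and 13 of 136 nuclear rRNA genes passed the filter on low counts in rRNA- libraries. Mitochondrial rRNA took 2.18% to 9.64% of the equalized counts in the low-share polyA+ libraries and 0.516% to 16.1% in the others. All fits and CPM below use the equalized counts, with CPM relative to the equalized total of each library. The heat labels were matched by the data of the low-share libraries, with 23.6 CPM of Hsp68, a heat-inducible chaperone gene, in the low-share library at 10°C and 1891 to 6043 CPM in those at 34°C and 37°C. The 10 genes of the male reproductive tract list took at most 0.000106% of the counts in any polyA+ library.

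Over the genome, many genes were higher and many lower in the low-share libraries. With temperature in the model, 688 of 8875 genes were higher (7.75% of the genes tested) and 487 were lower (5.49%) by edgeR's quasi-likelihood test (adjusted p under 0.05 after Benjamini and Hochberg, and at least 2-fold). Without temperature, 1423 genes (16.0%) were higher and 815 (9.18%) lower, and 662 of the 688 and 431 of the 487 were among them. All 5 low-share libraries lay above all 10 others for 708 genes (7.98%) and below them for 526 (5.93%). The median log2 fold change over all tested genes was -0.25 with temperature and -0.21 without it, and -0.12 in both with DESeq2's size factors, which gave 847 higher and 344 lower calls (71.1% higher, where the TMM scaling gave 58.6%). The log2 fold changes below come from the temperature-adjusted fit with TMM scaling and should be read against that median of -0.25. Likewise, the number of genes called in each list below should be read against the 7.75% higher and 5.49% lower over all tested genes.

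The temperature-adjusted contrast was formed at 10°C, 34°C and 37°C alone, since only these temperatures had libraries on both sides, and it rested on few libraries. Leaving out 37°C replicate 3, the only other library at 37°C, gave 130 genes higher and 25 lower. Leaving out 10°C replicate 2, the only low-share library at 10°C, gave 266 and 236. The counts were 953 and 814 in the absence of 10°C replicate 3, 399 and 329 in the absence of 34°C replicate 1, 421 and 241 in the absence of 37°C replicate 1, 858 and 303 in the absence of 25°C replicate 2, 495 and 288 in the absence of 37°C replicate 2, and 746 and 211 in the absence of 34°C replicate 3. The absence of a library at 4°C gave 814 to 827 higher and 294 to 314 lower. Every one of the 130 and 25 genes was also called with all libraries. With 37°C replicate 3 left out, all 677 higher and 485 lower genes that could still be tested kept their sign. These genes were chosen by their fold change in largely the same libraries, so a kept sign was likely beforehand and is no support.

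In rRNA- libraries of the same pools, 0 of 9512 genes were called higher and 0 lower, with temperature (0.0%) or without it (0.0%), by edgeR. At an unadjusted p under 0.05 in edgeR there were 421 genes with temperature and 627 without it, where 476 would be expected by chance. DESeq2's Wald test called 2 genes with temperature and 1 without it. Of the 688 genes higher in the low-share polyA+ libraries, 643 could be tested in rRNA- libraries, and 183 (28.5%) of these had a positive log2 fold change there, with a median of -0.13, against 1.70 in polyA+ libraries. Of the 487 lower genes, 478 could be tested, and 222 (46.4%) were positive, with a median of 0.01, against -1.37 in polyA+ libraries. Whether the split differed between the library types was tested directly over all 30 libraries. This test includes the polyA+ libraries whose counts gave the split, so its calls describe the libraries. Their overlap with the polyA+ calls is no separate support. The polyA+ and the rRNA- library of a pool entered this fit as independent. The difference was positive for 1136 of 9874 genes (11.5%) and negative for 400 (4.05%) at an edgeR adjusted p under 0.05, and 656 of the 688 and 324 of the 487 were among them. With the pool of 37°C replicate 3 left out these counts were 236 and 30, with that of 10°C replicate 2 left out 578 and 159, and with that of 10°C replicate 3 left out 1504 and 798. The negative count was also 216 to 257 with any 1 of the pools of 37°C replicates 1 and 2 and 34°C replicate 3 left out. Libraries of a side varied more in the polyA+ fit (biological coefficient of variation 0.469) than in the rRNA- fit (0.236).

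The 8 genes of smallest p among those higher included genes of cuticle, muscle and sugar digestion. The uncharacterized gene CG8736 (FBgn0033308, on 2R) had 232, 143, 140, 195 and 187 CPM in the low-share libraries, against 1.21 to 3.95 CPM, median 2.02, in the others. The fitted log2 fold change was 6.70 (SE 0.34, adjusted p = 4.1e-07, edgeR). In rRNA- libraries, CG8736 had 3.07 to 7.03 CPM in the same pools and 2.23 to 5.81 CPM in the other pools, with a log2 fold change of 0.07. The low-share polyA+ libraries thus stood above both the other polyA+ libraries and their own rRNA- libraries.

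Vajk3 and Vajk2 belong to a family of cuticle protein genes. Vajk3 (FBgn0028544, 2L from 13944756 to 13947476, minus strand, dm6) had 123, 86.1, 135, 87.9 and 86.1 CPM in the low-share libraries, against 0.973 to 6.85 CPM in the others (log2 fold change 5.56, SE 0.39, edgeR adjusted p = 1.3e-05). Vajk2 (FBgn0032538, 2L from 13932559 to 13934692, minus strand) had 204, 153, 186, 242 and 226 CPM, against 1.61 to 8.68 CPM (log2 fold change 5.78, SE 0.43, edgeR adjusted p = 1.7e-05). Both lie inside Ance-3 on the opposite strand, and whether strand was used in counting is not stated. Cpr92F, a gene for a chitin-binding cuticle protein (3R from 20669571 to 20672821, plus strand), had 275, 379, 522, 301 and 340 CPM, against 4.64 to 25.6 CPM in the others, a log2 fold change of 5.30. CG7203, which is uncharacterized, had 1804, 1279, 1366, 1599 and 1577 CPM, against 36.7 to 172 CPM, a log2 fold change of 4.17. In rRNA- libraries the ranges of the 2 sides overlapped for each of these genes.

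Act88F, the actin of the indirect flight muscle (FBgn0000047, 3R from 15439969 to 15442177, plus strand), had 4057, 3652, 3367, 7265 and 5840 CPM in the low-share libraries, against 34.8 to 252 CPM, median 83.5, in the others. The log2 fold change was 5.22 (SE 0.54, edgeR adjusted p = 3.3e-04). In rRNA- libraries Act88F had 392 to 870 CPM in the pools of the low-share libraries and 306 to 1104 CPM in the other pools. Its rRNA- level therefore lay between those of the 2 sides of the polyA+ libraries. Strn-Mlck, a large gene for a muscle myosin kinase, had 699, 606, 980, 1227 and 1244 CPM in the low-share libraries, against 45.3 to 139 CPM in the others, a log2 fold change of 3.39. For Strn-Mlck the rRNA- libraries were at 1121 to 1744 CPM in the same pools and 876 to 1907 CPM in the other pools, above the other polyA+ libraries and overlapping the low-share ones. Mal-A4, a maltase gene of a cluster of similar copies, had 65.2, 45.4, 67.5, 225 and 142 CPM, against 0 to 3.41 CPM, a log2 fold change of 5.39.

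**Figure D2:**
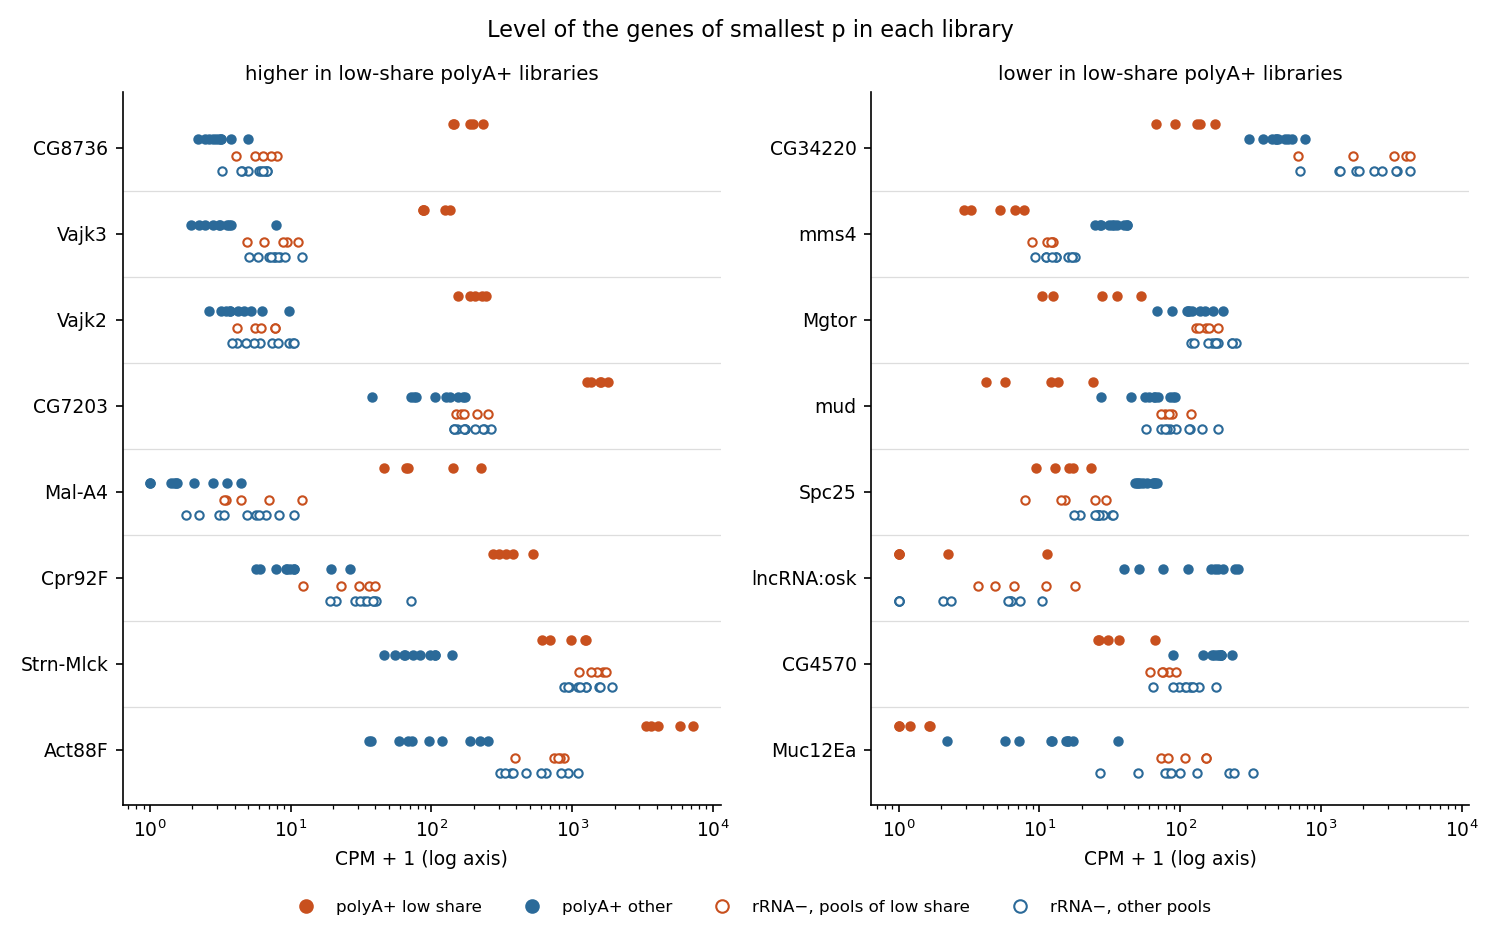
CPM of equalized counts plus 1 (log axis) of the 8 genes of smallest p higher and the 8 lower in the temperature-adjusted polyA+ fit, 1 point per library, the 5 low-share libraries beside the other 10, for polyA+ and for rRNA- libraries. The sides lie apart for all 16 genes in polyA+ libraries, by which they were chosen, and overlap in rRNA- libraries.

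The 8 genes of smallest p among those lower included genes of the cell cycle and DNA repair. The gene mms4, named for a subunit of a DNA repair nuclease, had 5.67, 6.75, 4.27, 1.91 and 2.25 CPM in the low-share libraries, against 23.8 to 40.8 CPM in the others (log2 fold change -3.08, SE 0.37, edgeR adjusted p = 5.4e-04). Mgtor, whose protein is part of the nuclear pore and acts at the spindle, had 26.8, 34.6, 51.9, 11.5 and 9.48 CPM, against 67.2 to 200 CPM, a log2 fold change of -2.27. The gene mud, which orients the mitotic spindle, had 12.6, 11.1, 22.9, 3.19 and 4.74 CPM, against 26.4 to 90.9 CPM, a log2 fold change of -2.52. Spc25, a kinetochore gene, had 15.1, 22.1, 16.2, 8.49 and 12.0 CPM, against 46.9 to 67.7 CPM, a log2 fold change of -1.98. Spc25 lies inside grsm and mud inside another gene, both on the opposite strand, and strand use in counting is not stated. Within the low side, the libraries at 37°C were the lowest for all 4 genes.

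The other 4 lower genes were of mixed kind. The noncoding gene lncRNA:osk (3R from 8935716 to 8938395, plus strand) was at 0, 10.3, 0, 0 and 1.25 CPM in the low-share libraries and at 38.8 to 255 CPM in the others, with a fitted log2 fold change of -7.0 that depends on how counts of 0 are treated. It lies inside osk on the same strand, so its counts are uncertain. The gene osk itself, which builds the germ plasm, had 146, 299, 599, 74.7 and 241 CPM, against 41.0 to 1015 CPM, and did not pass (log2 fold change 0.27, SE 0.95, edgeR adjusted p = 0.87). CG34220, inside oys on the same strand and equally uncertain, had 138, 130, 176, 91.5 and 66.1 CPM, against 305 to 770 CPM (log2 fold change -2.25). CG4570 had 29.6, 65.8, 35.7, 25.3 and 25.4 CPM, against 87.7 to 231 CPM (log2 fold change -2.42). The mucin gene Muc12Ea had 0.630, 0.675, 0.214, 0 and 0 CPM, against 1.22 to 35.0 CPM (log2 fold change -4.82, likewise set by counts near 0), while the rRNA- libraries held 72.5 to 152 CPM in the same pools and 25.9 to 329 CPM in the others.

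Ovary genes did not move as one group. Of the 9 chorion genes, 5 were lower and 0 higher, with a median log2 fold change of -2.66 where all tested genes had -0.25, while 0 of 10 vitelline membrane genes and 0 of 3 yolk protein genes were called, with medians of 0.18 and 0.21. At an unadjusted p under 0.05 in edgeR there were 0 vitelline membrane genes and 1 yolk protein gene, and DESeq2's Wald test called 0 and 1. Without temperature in the model, 4 of the 10 vitelline membrane genes and 1 of the 3 yolk protein genes were called higher by edgeR. Their medians were then 0.81 and 0.55, and 16.0% of all tested genes were called higher. With temperature, 2 of 20 maternal germline genes were lower and 0 higher, where 5.49% of all tested genes were lower, and the list's median was -0.87. With 37°C replicate 3 left out, 0 chorion and 0 germline genes were called, and the chorion median was -1.46. Whether these values reflect the flies or the preparation of the libraries was not tested. In whole flies, fewer cells of a type and less RNA per cell cannot be told apart. Follicle cells make both vitelline membrane and chorion, the chorion later.

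The chorion list took 0.896%, 1.30%, 0.693%, 0.00104% and 0.239% of the counts in the low-share libraries and 1.92% to 4.16%, median 2.82%, in the others, with no overlap. The lowest value was that of 37°C replicate 1, in which the major chorion genes were nearly unseen, although the rRNA- library labelled as the same pool held 1.46%. Over all rRNA- libraries the chorion share was 1.33% to 2.39% in the pools of the low-share libraries and 1.24% to 2.30% in the other pools. Cp36, a major early chorion gene, had 3021, 4514, 2141, 0.849 and 1121 CPM in the low-share libraries, against 2682 to 14673 CPM in the others, and did not pass (log2 fold change -1.68, SE 1.06, edgeR adjusted p = 0.29). Cp15, a major late chorion gene, had 949, 2115, 1107, 0 and 306 CPM, against 3112 to 10474 CPM (log2 fold change -3.61, SE 1.10, edgeR adjusted p = 0.043, which became 0.284 without 37°C replicate 3 and lay above 0.05 without any of 12 other libraries). Cp16, Cp18, Cp19 and Cp7Fa were also called lower, with log2 fold changes of -4.05, -2.66, -4.06 and -2.93. Cp38, Cp7Fb and Cp7Fc had -1.81, -0.10 and 0.49 and did not pass.

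The yolk protein genes, transcribed in fat body and follicle cells, took 2.83%, 3.18%, 2.88%, 1.86% and 3.29% of the counts in the low-share libraries and 0.908% to 3.39% in the others. Yp2 had 11234, 11951, 10375, 8996 and 14528 CPM in the low-share libraries, all above the 2051 to 8830 CPM of the others. It was called without temperature (log2 fold change 1.39, edgeR adjusted p = 0.0041) but not with it (1.02, SE 0.35, edgeR adjusted p = 0.066). With temperature, Yp2 was called under 4 of 7 other settings and in 6 of 15 fits without 1 library. Yp3 had a log2 fold change of 0.05. Among vitelline membrane genes, Vm26Aa had 626, 1412, 1640, 493 and 652 CPM, against 134 to 748 CPM, and did not pass (log2 fold change 0.80, edgeR adjusted p = 0.19). Vm26Aa was highest in the 2 libraries at 34°C, and so was the share of the list. Of the germline genes, pgc, which represses transcription in germ cell precursors, had 72.8, 108, 84.6, 37.2 and 51.6 CPM, against 125 to 270 CPM (log2 fold change -1.34). The gene swa, needed to localize bicoid mRNA, had a log2 fold change of -1.03. CycB and exu had -1.21 and -0.72 and did not pass. The germline share was 0.140%, 0.310%, 0.373%, 0.0847% and 0.157% in the low-share libraries, within the reach of the 0.185% to 0.661% of the others only at 34°C.

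The rRNA- libraries of the same pools gave a test of the ovary lists on values that the choice did not use. The chorion share was 1.70% ± 0.416 (SD, n = 5) in the pools of the low-share libraries and 1.93% ± 0.329 (SD, n = 10) in the others (exact permutation test, 2-sided, p = 0.269, adjusted over 4 lists 0.537). The vitelline membrane share was 0.333% ± 0.127 and 0.330% ± 0.102 (exact permutation p = 0.968), the yolk protein share 3.74% ± 0.349 and 3.23% ± 0.758 (exact permutation p = 0.186, adjusted 0.537), and the germline share 0.492% ± 0.0444 and 0.521% ± 0.107 (exact permutation p = 0.567, adjusted 0.756). Within temperature the adjusted p-values of the exact permutation test lay between 0.444 and 0.704 for the 4 lists. A difference of the ovary lists between the pools was therefore not detectable in rRNA- libraries at this number of pools.

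DNA replication and mitosis genes were lower as a group. Of 22 genes, 17 were lower and 0 higher, the median was -1.42, and all 22 had a negative log2 fold change. In rRNA- libraries 0 of the 22 were called, 16 were positive and the median was 0.08. In the absence of 37°C replicate 3 only 1 of the 22 was called, and without 10°C replicate 2 there were 8, with medians of -1.19 and -1.37. The list's share was 0.172%, 0.264%, 0.227%, 0.0970% and 0.139% in the low-share libraries and 0.372% to 0.593% in the others. It was 0.241% to 0.397%, median 0.304%, in the rRNA- libraries of the same pools and 0.264% to 0.436%, median 0.338%, in the other rRNA- libraries, and both medians lay between the 2 sides of the polyA+ libraries.

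Among its members, PCNA, the sliding clamp of DNA polymerase, had 121, 163, 115, 73.3 and 84.8 CPM in the low-share libraries, against 265 to 431 CPM in the others (log2 fold change -1.51, SE 0.27, edgeR adjusted p = 0.0049). The gene fzy, which activates the anaphase-promoting complex, had 49.5, 71.4, 40.6, 15.3 and 26.2 CPM, against 143 to 248 CPM (log2 fold change -2.35). For both genes the ranges lay apart in polyA+ and overlapped in rRNA- libraries, where fzy had 77.7 to 122 CPM and 91.1 to 137 CPM. CycE, the cyclin of S phase entry, had a log2 fold change of -2.26. The gene dUTPase, which keeps uracil out of DNA, had 245, 215, 140, 174 and 163 CPM, against 228 to 743 CPM (log2 fold change -1.59, edgeR adjusted p = 0.028, and 0.055 to 0.157 without any one of 8 libraries). The 5 members not called were stg (-2.08), polo (-0.99), CycA (-0.98), RnrL (-0.95) and Cdk1 (-0.94).

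Of 9 genes that process histone mRNA, 2 were lower, where 5.49% of all tested genes were. All 9 had a negative log2 fold change, with a median of -1.07, and without 37°C replicate 3, 0 were called. Slbp, whose protein binds the histone stem-loop and directs its 3' end formation, had 74.7, 86.7, 53.6, 36.9 and 56.6 CPM in the low-share libraries, against 102 to 228 CPM in the others (log2 fold change -1.49, SE 0.35, edgeR adjusted p = 0.017). The adjusted p of Slbp was 0.123 without 37°C replicate 3 and 0.080 without 34°C replicate 1 (edgeR). In rRNA- libraries Slbp had 63.5 to 118 CPM and 82.4 to 125 CPM, an overlap. CstF64, a cleavage factor, was the other gene called (-1.07). Cpsf73, the cleavage nuclease, and mxc, which organizes the histone locus body, had -0.86 and -1.92 and did not pass. Of 11 genes for factors that add, bind or remove poly(A) tails, only twin, a deadenylase subunit, was called (-1.66), and the poly(A) binding protein gene pAbp had -0.34.

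Of 6 replacement histone genes, 2 were lower and 0 higher, where 5.49% of all tested genes were lower and 7.75% higher, and the median was -0.79. The list took 0.126%, 0.127%, 0.116%, 0.117% and 0.120% of the counts in the low-share libraries and 0.156% to 0.242% in the others, with no overlap. The gene cid, the centromeric H3 variant, had 12.9, 34.9, 15.8, 4.46 and 17.0 CPM, against at least 39.7 CPM in each of the others (log2 fold change -1.90, SE 0.40, edgeR adjusted p = 0.011, and 0.107 without 37°C replicate 3). BigH1, the embryonic linker histone, was the other gene called (-1.06), but was under the 2-fold limit with DESeq2's size factors (-0.93) and had an adjusted p of 0.101 without 37°C replicate 3 and of 0.062 without 34°C replicate 1 in edgeR. Of the 6 genes, 0 were called without 37°C replicate 3 and 3 without 10°C replicate 2. His3.3B had -0.76 (edgeR adjusted p = 0.043), under the 2-fold limit. His4r, His3.3A and His2Av had -0.82, -0.55 and -0.50 and did not pass.

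**Figure D3:**
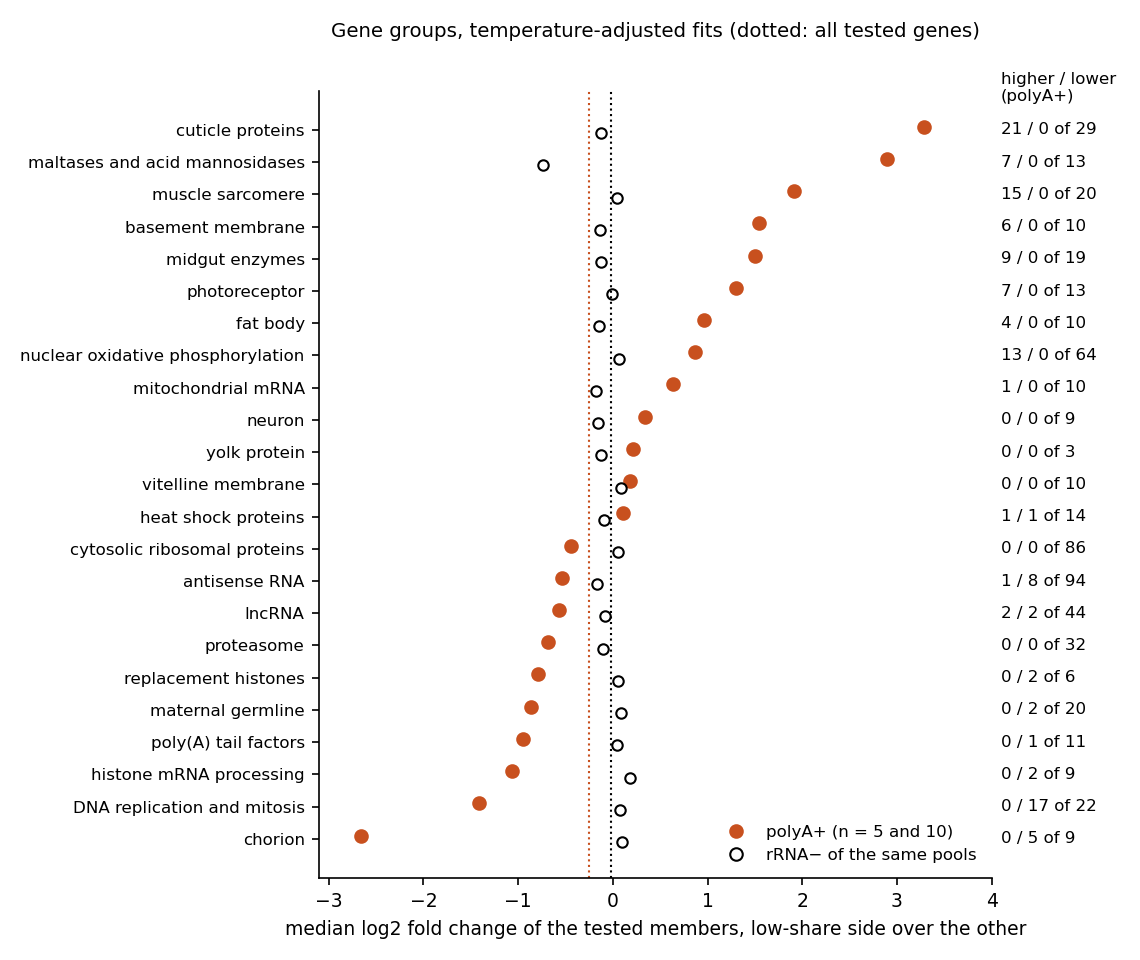
Median temperature-adjusted log2 fold change of each gene list, low-share libraries minus the others, for polyA+ and for rRNA- libraries, with the number of genes called of those tested, and the median over all tested genes as a line. In polyA+ libraries the medians run from -2.66 (chorion) to 3.29 (cuticle proteins), and in rRNA- libraries 0 genes of any list were called.

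Sarcomere genes, which build the contractile unit of muscle, were mostly higher. Of 20 such genes, 15 were higher and 0 lower, with a median of 1.91. The list took 3.17%, 2.59%, 3.39%, 3.42% and 3.04% of the counts in the low-share libraries and 0.523% to 1.02% in the others. In rRNA- libraries the share was 1.65% to 2.02% in the same pools and 1.58% to 2.33% in the other pools, again between the 2 sides. Mhc, the muscle myosin heavy chain, had 3797, 3536, 6655, 3352 and 4084 CPM, against 583 to 1583 CPM (log2 fold change 2.24, SE 0.31, edgeR adjusted p = 0.0015), and Mlc2, a myosin light chain, had a log2 fold change of 2.14. The flight muscle genes fln and TpnC4 had 4.62 and 3.48. The genes of the giant proteins sls and bt had -0.35 and 0.10, and Mf, Mlp60A and Mlp84B had 0.08, 0.60 and 1.03, so 5 members did not pass. Of the 20, 9 were called without 37°C replicate 3 and 10 without 10°C replicate 2.

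Cuticle protein genes, gathered as a list after the values were seen, had the highest median of the lists. Of 130 genes only 29 passed the filter on low counts, and 21 of these were higher and 0 lower, with a median of 3.29. Since a gene at low level could pass through the libraries where it is high, these 29 are not a sample of the whole family. The list took 0.403%, 0.251%, 0.321%, 0.468% and 0.388% of the counts in the low-share libraries and 0.0282% to 0.0617% in the others. The rRNA- libraries held 0.0428% to 0.0678% and 0.0401% to 0.0882%, near the other polyA+ libraries. Acp65Aa, an adult cuticle gene, had 1336, 711, 771, 1558 and 1310 CPM, against 8.39 to 49.9 CPM (log2 fold change 5.65, SE 0.63, edgeR adjusted p = 4.7e-04). Cpr49Ab had 2.13 (edgeR adjusted p = 0.021, 0.149 without 10°C replicate 2 and 0.132 without 37°C replicate 3).

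**Figure D4:**
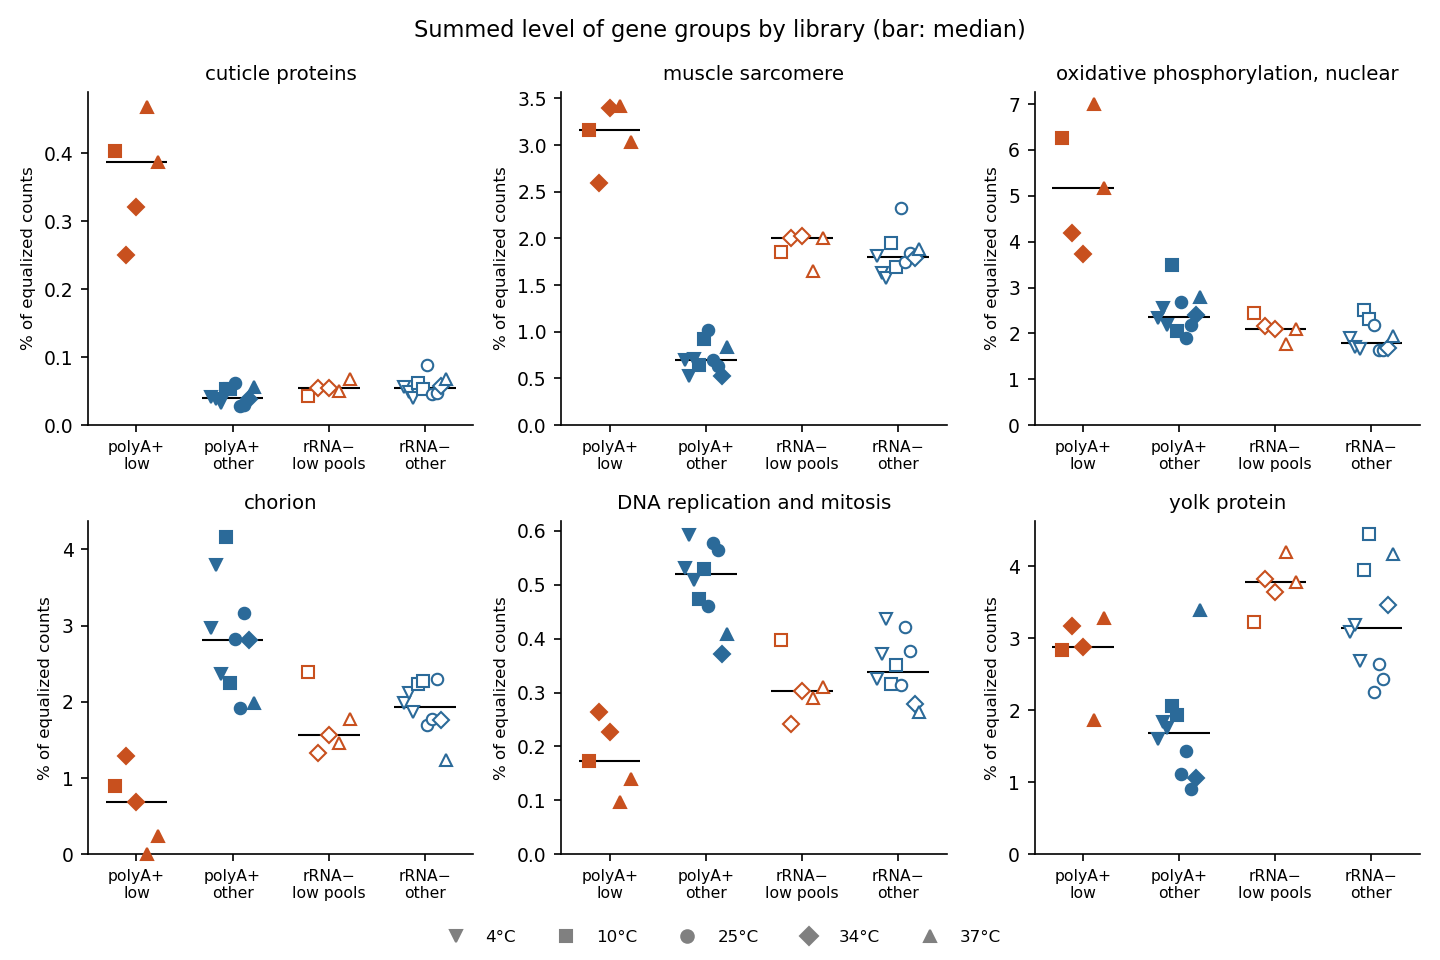
Share of the equalized counts (percent) of selected gene lists, 1 point per library with the median of each side as a bar and the marker shape giving the temperature, the 5 low-share libraries beside the other 10, for polyA+ and rRNA- libraries. In polyA+ libraries the sides lie apart for chorion, DNA replication, muscle, cuticle and oxidative phosphorylation genes and overlap for yolk protein genes, and in rRNA- libraries they overlap for every list drawn.

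Held within a temperature, the ratio of the mean share in low-share libraries to that in the others was 7.57 at 10°C, 7.59 at 34°C and 7.66 at 37°C for cuticle genes. For sarcomere genes it was 4.04, 5.73 and 3.84 at the same temperatures. The ratio for chorion genes was 0.280, 0.354 and 0.0606, and for DNA replication genes 0.344, 0.661 and 0.289. These 4 lists thus kept their direction at each temperature. The yolk protein, vitelline membrane and germline lists did not, with ratios of 1.41, 2.84 and 0.758 for yolk protein, 0.631, 3.06 and 0.744 for vitelline membrane and 0.330, 1.64 and 0.387 for germline genes. For the chorion, DNA replication, sarcomere and cuticle lists the ratios in rRNA- libraries lay between 0.743 and 1.30.

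Basement membrane genes, also listed after their values were seen, had 6 of 10 members higher. Col4a1 and vkg encode the collagen IV chains that fat body and hemocytes secrete. Col4a1 had 514, 445, 627, 548 and 799 CPM in the low-share libraries, against 60.0 to 202 CPM in the others (log2 fold change 2.54, SE 0.32, edgeR adjusted p = 8.1e-04), and vkg had 2.42. In rRNA- libraries Col4a1 had 847 to 1369 CPM and 875 to 1275 CPM, above both polyA+ sides. SPARC, a collagen-binding protein, had 1.03 (edgeR adjusted p = 0.052). SPARC was called under 5 of 7 other settings, among them edgeR with DESeq2's size factors (1.17, adjusted p = 0.023), and in 7 of the 15 edgeR fits without 1 library.

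Maltase and acid mannosidase genes, likewise listed after their values were seen, had 7 of 13 tested members higher and a median of 2.90. LManVI had 239, 162, 388, 389 and 356 CPM, against 0 to 8.27 CPM, with a median of 0, and LManII had a log2 fold change of 1.32 (edgeR adjusted p = 0.0040). DESeq2's Wald test called 12 of the 13. Reads of these clustered copies can be shared between neighbours. Mal-A5 had -0.34, so the maltases did not move as one. The list's median was -0.73 in rRNA- libraries, with 0 genes called.

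Photoreceptor genes had 7 of 13 members higher and a median of 1.30, with 11 called by DESeq2's Wald test and 3 by edgeR without 37°C replicate 3. Arr2, an arrestin that ends the light response, had 867, 626, 614, 915 and 701 CPM, against 94.0 to 425 CPM (log2 fold change 1.30, SE 0.35, edgeR adjusted p = 0.028, and 0.0504 to 0.123 without any one of 5 libraries). The scaffold gene inaD had 1.97, ninaE, the main rhodopsin, had 0.99 (edgeR adjusted p = 0.092), and norpA, the phospholipase of the same cascade, had -1.48 without passing. Of the neuron list 9 of 20 genes passed the filter on low counts and 0 were called, by edgeR or DESeq2, with 1 at an unadjusted p under 0.05.

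Fat body genes had 4 of 10 members higher, with a median of 0.96, and 0 of them without 37°C replicate 3. FASN1, fatty acid synthase, had 1.85 (edgeR adjusted p = 0.0061, and 0.062 without 37°C replicate 3). Lsp2, a larval serum protein gene, had 132, 511, 763, 123 and 617 CPM, against 21.2 to 101 CPM (log2 fold change 2.14), and Tsf1, transferrin, had 0.29. Midgut enzyme genes had 9 of 19 tested members higher, with a median of 1.50, of which 1 was called without 37°C replicate 3 and 1 without 10°C replicate 2. Of the 2 members of highest mean CPM, Jon65Aiv was called and alphaTry was not. Jon65Aiv no longer passed without 10°C replicate 2 (1.77, edgeR adjusted p = 0.083) or without 37°C replicate 3 (1.43, edgeR adjusted p = 0.155). With the replicate number also in the model, alphaTry was called (1.49, edgeR adjusted p = 0.037). Among members picked after their values were seen, the digestive protease gene Jon25Bii had 1025, 200, 478, 1332 and 1039 CPM, against 11.1 to 134 CPM (log2 fold change 3.07). The amylase gene Amy-p had 682, 216, 169, 866 and 695 CPM, against 8.85 to 272 CPM (log2 fold change 1.99). Jon25Bii and Amy-p were lower in the 2 libraries at 34°C than in the other 3, and Lsp2 was lowest at 37°C replicate 1 and 10°C replicate 2.

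Nuclear genes of oxidative phosphorylation lay above the median of all genes throughout. All 64 tested had a positive log2 fold change, with a median of 0.87, but only 13 were called at 2-fold with temperature and 56 without it, and DESeq2's Wald test called 32 with temperature. The count was 0 without 37°C replicate 3 and 3 without 10°C replicate 2, with medians of 0.74 and 0.72. The list took 6.26%, 4.19%, 3.74%, 7.0% and 5.17% of the counts in the low-share libraries and 1.90% to 3.49% in the others. ND-B8, a complex I gene, had 2.19, and the ATP synthase genes ATPsynC and ATPsynbeta had 0.88 and 0.84, under the 2-fold limit.

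Cytosolic ribosomal protein and proteasome genes had medians below 0 and no calls by edgeR or DESeq2. The median of 86 ribosomal protein genes was -0.44, with RpL3 at -0.24 and RpL7A at -0.51, and 9 had an unadjusted p under 0.05. The median of 32 proteasome genes was -0.68, and 11 had an unadjusted p under 0.05. All 9 and all 11 were negative, and 4 of the 86 and 1 of the 32 members had a positive log2 fold change. Over all 8875 genes tested in this edgeR fit, 2862 had an unadjusted p under 0.05. The ribosomal protein count was below that share and the proteasome count near it. Of 10 mRNAs of the mitochondrial genome, only mt:ND2 was called higher (3.34) and the median was 0.63. Over all tested genes 7.75% were called higher and 5.49% lower. The 2 mitochondrial rRNA genes had a median of -1.22, with mt:lrRNA at -0.57, and 0 were called. Without temperature, 1 of the 2 was called lower. Of 14 heat shock genes 2 were called, Hsp70Bb higher (1.85) and Hsp70Bc lower (-1.16), near the shares over all genes. These 2 are near-identical copies whose reads cannot be told apart with certainty. Hsp26 and Hsp83 had -0.77 and -0.38 and did not pass.

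The genes of smallest p in the rRNA- fit had modest differences. CG33981, which lies inside fab1 on the same strand and is uncertain, had 79.9 to 104 CPM in the pools of the low-share libraries and 28.1 to 103 CPM in the others, with a log2 fold change of 1.36 and the smallest adjusted p of that fit (SE 0.22, edgeR adjusted p = 0.209). It was called by DESeq2's Wald test (1.38, adjusted p = 3.9e-06), by edgeR with only the libraries at 10°C, 34°C and 37°C (1.39, adjusted p = 0.014) and by edgeR without 25°C replicate 1 (1.36, adjusted p = 0.016). With full counts its log2 fold change was 0.10 (edgeR adjusted p = 0.998). ATPsynE, a subunit of ATP synthase, had 226 to 383 CPM, against 174 to 285 CPM (log2 fold change 0.47, SE 0.11, edgeR adjusted p = 0.95). In polyA+ libraries ATPsynE had 747, 618, 481, 607 and 505 CPM in the low-share libraries, against 225 to 331 CPM (log2 fold change 1.10, edgeR adjusted p = 0.013). The other genes so chosen, phyl, CG10366, CG13324, CG17027, Vps37B and Tsp42Ea, had 1.43, 0.68, -1.19, -0.97, -0.45 and -0.91 in rRNA- libraries and did not pass.

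Gene length was weakly related to the split, and the relation changed with the model. Across 8828 genes with an annotated exonic length, Spearman's rho between length and log2 fold change was -0.14 without temperature and -0.06 with it, a description across genes of the same libraries. Genes were cut into 5 groups of equal size by length. Of the shortest group, 152 to 1123 bases, 21.3% were called higher without temperature and 8.43% with it, and of the longest group, 3955 to 71820 bases, 9.29% and 5.44%. With temperature, the share called lower was 6.33% in the shortest and 3.23% in the longest group, and the median log2 fold change was -0.23 and -0.29. Called genes of both directions were shorter than the median gene of 2037 bases, with medians of 1884 bases for the higher and 1655 bases for the lower genes. Without temperature the lower genes were longer, with a median of 2163 bases, and the higher ones had 1674 bases.

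**Figure D5:**
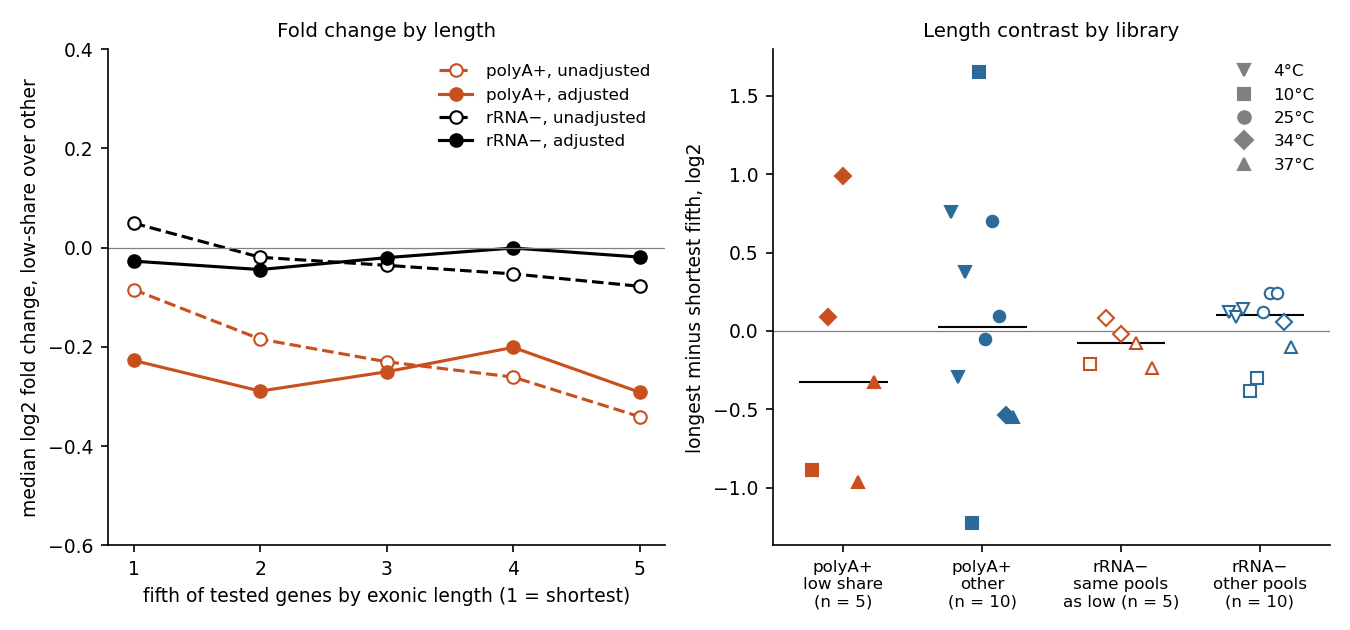
Median log2 fold change, low-share libraries minus the others, by group of exonic gene length (5 groups of equal size) with and without temperature in the model, and the length contrast of each library (log2), for polyA+ and rRNA- libraries. In polyA+ libraries the trend over the groups, from -0.08 to -0.34 without temperature, is not seen with it, and the length contrasts of the 2 sides overlap in both library types.

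Library by library, the length contrast was taken as the median deviation of log2 CPM from the mean of the 15 libraries in the longest group minus that in the shortest. It was -0.89, 0.09, 0.99, -0.96 and -0.33 in the low-share libraries, and ran from -1.22 in 10°C replicate 1 to 1.65 in 10°C replicate 3 among the others. The low-share libraries thus had no common length bias, and differed among themselves by about as much as the others did. In rRNA- libraries the contrast was -0.0920 ± 0.133 (SD, n = 5) in the pools of the low-share libraries and 0.0218 ± 0.216 (SD, n = 10) in the others (exact permutation test, 2-sided, p = 0.301), and within temperature the difference was 0.0171 (exact permutation test, p = 0.741). Spearman's rho was -0.21 without temperature and 0.02 with it over 9461 genes in rRNA- libraries.

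The 5 low-share libraries were not alike in every measure. The library of 37°C replicate 1 had the lowest share of histone, chorion, vitelline membrane, yolk protein, germline, DNA replication and histone mRNA processing genes among them, and the highest share of sarcomere, cuticle and oxidative phosphorylation genes. The 2 libraries at 34°C had the highest shares of vitelline membrane and germline genes of the 5 and the lowest shares of cuticle genes. The replacement histone share ran only from 0.116% to 0.127% over the 5, and the chorion share from 0.00104% to 1.30%.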

How the data were processed

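The authors deposited unnormalized whole-number read counts for 17807 FlyBase genes, aligned to dm6, from 15 polyA+ and 15 rRNA- libraries. Whether STAR 2.7.7a or Salmon 1.4.0, both named in the submitters' notes, gave them is not given in the sources used here. The deposited full counts keep rRNA, with polyA+ reads of 150 bp or trimmed to 85 bp. The authors' equalized counts exclude rRNA reads, use 85 bp reads and are thinned to the depth of the matching rRNA- libraries. RNA input (over 0.8 µg for polyA+, 0.3 µg for rRNA-) and sequencer cannot be told apart from library type. Intervals cover counting error only.

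The histone share was computed from full 85 bp counts over the His1, His2A, His2B, His3 and His4 repeat genes. Members, gene lists and tests were chosen with earlier results of these data known. Sides were compared on equalized counts by edgeR 4.0.16 (R 4.3.3, limma 3.58.1; TMM, filterByExpr on the 2 sides, robust quasi-likelihood), with or without temperature, after removing 111 histone genes. Standard errors were approximated from the F statistic. The library type difference used all 30 libraries and was called by adjusted p alone. Exact permutation tests (scipy 1.17.1) covered all 3003 splits, or the 27 within temperature. The fits were tested on simulated data. Lengths and positions are from Ensembl release 115, which held 17710 genes. Cp36, Arr2 and dUTPase also lie inside genes on the opposite strand, and Cpsf73 and CstF64 overlap. Since strand use in counting is not stated, the counts of these genes are uncertain. Plots used matplotlib 3.10.9.

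Named genes were the 8 of smallest p in each direction of the temperature-adjusted polyA+ fit, the 4 in each direction of the rRNA- fit, the 2 of highest mean CPM of each list, and all replacement histones. All other genes named, and the cuticle, basement membrane and maltase lists, were chosen after their values were seen. Alternatives were DESeq2 1.42.0 (size factors, Wald test), no filter, full counts, a replicate block, only the 3 temperatures with both sides, and leaving out each library.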

Additional observations from a re-analysis of the deposited data

Results flagged for a closer look

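Within each side of the split, each share and each gene named by rule was searched for a library far from the rest of its side, by Dixon's criterion in 122 tests, of which chance flags about 1 in 20. Among the low-share polyA+ libraries, 10°C replicate 2 stood apart in nuclear rRNA (0.0606% of the full counts), 34°C replicate 3 in the neuron list (0.0152%), and 34°C replicate 2 in lncRNA:osk (10.3 CPM) and CG4570 (65.8 CPM). Among the other polyA+ libraries, 37°C replicate 3 stood apart in the yolk protein (3.39%) and heat shock lists (2.62%), 10°C replicate 3 in Vajk3 (6.85 CPM) and Vajk2 (8.68 CPM), and 4°C replicate 1 in Muc12Ea (35.0 CPM). Among the other rRNA- libraries, 4°C replicate 3 stood apart in nuclear rRNA (8.60%), 25°C replicate 1 in the sarcomere list (2.33%) and 37°C replicate 3 in the heat shock list (3.29%). In the heat shock lists, 37°C replicate 3 was the only other library at 37°C in both library types.

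The effect of the split differed between the library types, by the edgeR test of the difference itself, for 1136 genes in the positive and 400 in the negative direction. As polyA+ minus rRNA-, the log2 difference of the effects was 6.79 for CG8736, 5.81 for Vajk3, 6.45 for Vajk2, 4.33 for CG7203, 6.18 for Mal-A4, 6.07 for Cpr92F, 3.37 for Strn-Mlck and 5.17 for Act88F. It was -2.68 for CG34220, -2.47 for mms4, -2.15 for Mgtor, -2.57 for mud, -1.48 for Spc25, -10.15 for lncRNA:osk, -1.85 for CG4570 and -5.51 for Muc12Ea. These 16 genes were chosen for their polyA+ values, so the size of their differences is a description. The cause was not tested.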

How the results depend on the processing

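With temperature in the model, the genes higher numbered 1145 by DESeq2's Wald test, 1091 with full counts of 85 bp reads and 1054 with full counts of 150 bp reads, against 688. The genes lower numbered 299 without a filter on low counts and 101 with only the libraries at 10°C, 34°C and 37°C, against 487. Leaving out 1 library gave 130 to 953 higher and 25 to 814 lower with temperature, and 1150 to 1633 higher and 530 to 975 lower without it, the fewest lower without 37°C replicate 1. The library type difference gave 244 lower without a filter, and 236 to 1504 higher and 30 to 798 lower when 1 pool was left out. In rRNA- libraries the alternatives called at most 2 genes: DESeq2's Wald test called 1 lower without temperature and 2 higher with it, the 3 temperatures alone 1 higher and 1 lower, and no filter 1 lower, while leaving out 1 library gave 0 to 1 higher. The cause was not tested.

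The histone share of rRNA- libraries differed by -0.0518 without rRNA genes (exact permutation p = 0.0110) and by -0.0361 to -0.0199 without 1 library. The vitelline membrane share turned to -0.0122 without rRNA genes and ran from -0.0313 to 0.0358 without 1 library, with 7 of 15 values reversed. Without 1 library the difference ran from -0.396 to -0.131 for chorion, from -0.0489 to -0.0118 for germline and from 0.388 to 0.638 for yolk protein shares, and from -0.159 to -0.0782 for the length contrast. Genes that did not pass and turned without 1 library were Yp3 (-0.26 to 0.52), pAbp (-0.68 to 0.27), Tsf1 (-0.24 to 0.92), RpL3 (-0.46 to 0.04), His2Av (-0.99 to 0.24), mt:lrRNA (-0.83 to 0.040) and osk (-0.78 to 1.14), as did the heat shock median (-0.18 to 0.43). ATPsynC, which missed the 2-fold limit, was called under 2 of 7 other settings and in 5 of 15 fits without 1 library, ninaE by DESeq2's Wald test, and each of ninaE, Cpsf73 and His3.3B in 1 of the 15. The sign of 0 of the 688 and 487 called genes still tested changed under any setting, which was likely beforehand, since these genes were chosen by their fold change in largely the same libraries.

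The replicate block gave 828 higher and 542 lower with temperature, and turned Yp3 to -0.21 and pAbp to 0.029. Across temperatures, polyA+ libraries deviated together with r over 0.1 in 11 of 30 pairs of one number and in 23 of 60 of different number, so the number was not used as a block. Within a temperature, 9 of 15 polyA+ libraries correlated best with the rRNA- library of their own number, and the library types were matched by it. A difference between rRNA- pools smaller than their spread was not detectable with 5 and 10 pools, and within temperature no p can go under 0.037.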
